A study of Mus musculus with 78 samples.

Results

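AHR, CYP1A1, CYP1A2 and CYP2E1 were described here across all groups of a mouse liver study: the aryl hydrocarbon receptor, the pair of CYP1A enzymes it controls, and a further drug-metabolising cytochrome P450 of the same liver zone. The members were taken by name. They are 4 of the 2755 genes of the count table, and all 4 are among the 2205 genes that were tested. The livers came from male B6C3F1 mice that drank deionized water with 3.5 g/L dichloroacetic acid (DCA), a by-product of water disinfection, from 4 weeks of age, or deionized water alone. S1-10 had DCA for 10 weeks and was collected then. S1-32, S1-57 and S1-78 had the same 10 weeks of DCA followed by 22, 47 or 68 weeks of plain water. S2-32 had DCA for 32 weeks, and S2-78 had 46 weeks of water after that. S3-57 had DCA for 57 weeks, and S3-78 had 21 weeks of water after that. Direct-78 had DCA for all 78 weeks. Control-10, Control-32, Control-57 and Control-78 had water only and were collected at the week in their name. All mice share the strain and the sex, each library comes from 1 mouse, and the tissue was archived in formalin-fixed paraffin blocks, which may hold RNA of uneven quality. The 68 libraries that the authors kept of 78 were used: 6 each of S1-10, S1-32, S1-57, S1-78, S2-32, Control-32, Control-57 and Control-78, 5 of S3-57, 4 each of Control-10, S2-78 and S3-78, and 3 of Direct-78.

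The aryl hydrocarbon receptor waits in the cytosol with the chaperone HSP90. When it binds a planar aromatic ligand such as a dioxin it moves to the nucleus, pairs with ARNT and binds short DNA elements with the core GCGTG, the xenobiotic response elements. CYP1A1 is its classic target and is nearly silent in liver without a ligand, while CYP1A2 is made by liver constitutively and rises further on activation. CYP2E1 oxidises ethanol, acetone and other small molecules, and its amount is set largely without the receptor. In the liver lobule CYP1A2 and CYP2E1 are made mainly by the hepatocytes around the central vein.

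The panel counts transcripts with probes, 1 count per ligated and sequenced probe pair, so the genome enters only through the position of each gene. On GRCm38, GENCODE places Ahr on the minus strand of chromosome 12, from 35497974 to 35535038. Cyp1a1, on the plus strand of chromosome 9 from 57687928 to 57703824, and Cyp1a2, on its minus strand from 57676937 to 57683703, stand head to head, and their RefSeq start sites lie 13958 bases apart. Cyp2e1 lies on the plus strand of chromosome 7, from 140763739 to 140774987. All 4 are protein-coding. The RefSeq promoter table of GRCm38.p6 matched 3 of the 4 members, and Ahr was not matched. The 250 bases before each start site are shown as a description of these 3 genes. Whether their letters bear on the levels in these livers was not tested. Capitals mark the response element core GCGTG, the TATA box letters TATAAA and the box CCAAT, each searched on both strands, so that the printed ATTGG is the last of these read from the opposite strand. The matches do not overlap. The windows are chr9:57697363-57697612 on the plus strand, chr9:57683656-57683905 on the minus strand and chr7:140763569-140763818 on the plus strand.
Cyp1a1: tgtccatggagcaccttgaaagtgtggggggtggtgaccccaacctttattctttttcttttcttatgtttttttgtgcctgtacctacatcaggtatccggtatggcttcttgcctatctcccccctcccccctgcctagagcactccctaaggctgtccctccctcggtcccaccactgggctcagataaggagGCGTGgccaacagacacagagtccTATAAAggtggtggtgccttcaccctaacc
Cyp1a2: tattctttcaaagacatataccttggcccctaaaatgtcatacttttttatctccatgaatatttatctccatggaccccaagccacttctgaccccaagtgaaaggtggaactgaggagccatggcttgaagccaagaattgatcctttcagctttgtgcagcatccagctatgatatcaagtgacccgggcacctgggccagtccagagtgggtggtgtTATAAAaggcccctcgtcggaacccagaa
Cyp2e1: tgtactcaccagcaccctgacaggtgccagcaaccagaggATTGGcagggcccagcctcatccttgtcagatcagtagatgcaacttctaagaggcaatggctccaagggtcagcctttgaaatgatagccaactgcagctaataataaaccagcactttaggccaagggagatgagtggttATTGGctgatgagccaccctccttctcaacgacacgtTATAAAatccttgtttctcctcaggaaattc
GCGTG occurs once in the Cyp1a1 window, 54 bases before the start, and in 28.2% of the windows of the same length of 32851 promoters. It is not in the windows of Cyp1a2 and Cyp2e1. TATAAA begins 30, 29 and 31 bases before the start of Cyp1a1, Cyp1a2 and Cyp2e1, and 12.4% of all windows hold it. CCAAT is in the Cyp2e1 window alone among the 3, at 2 places; 33.8% of all windows hold it and 10.1% hold it at 2 or more places. A match of letters is a description of the window and not a bound site.

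Total counts of the 68 libraries ran from 541245 to 4285848, with a median of 2162678. In S1-32 every total (2979117 to 3914572) was above every total of Control-32 (721372 to 2731045), and in S3-57 (1123317 to 2030701), S3-78 (1154431 to 1936370) and Direct-78 (541245 to 699825) every total was below the age-matched controls (2223516 to 4153377 at 57 weeks, 2098777 to 4285848 at 78 weeks). Depth and treatment cannot be told apart in these groups. A second measure of a library, the squared Spearman correlation of its expression with the mean over all 78 libraries, ran from 0.641 to 0.800 in Direct-78 and from 0.849 to 0.944 in Control-78. The lowest kept libraries by this measure were those of mouse 75 in Control-32 (0.628) and of mouse 66 in Direct-78 (0.641). Markers of pancreatic acinar cells summed to at least 1000 CPM in 4 kept libraries, mice 17, 19, 36 and 47. APOA1 and TTR, hepatocyte markers of the panel, summed to 10718 CPM in mouse 68 of Control-10, to 14537 in mouse 41 of S2-32 and to 17033 or more in every other kept library. Counting error differs widely between the members: CYP2E1 had 1222 to 78352 counts per library, CYP1A2 28 to 2366, AHR 0 to 545 and CYP1A1 0 to 93, with 24 of 68 libraries under 10 counts of CYP1A1. Levels are given below as CPM, the count scaled to a common library total after TMM correction, and log2 CPM adds a prior count of 2. The summed markers, above and below, and the limits of 3 counts are CPM of the library total without TMM correction. Probes differ in efficiency, so levels are compared between livers and not between genes.

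**Figure D1:**
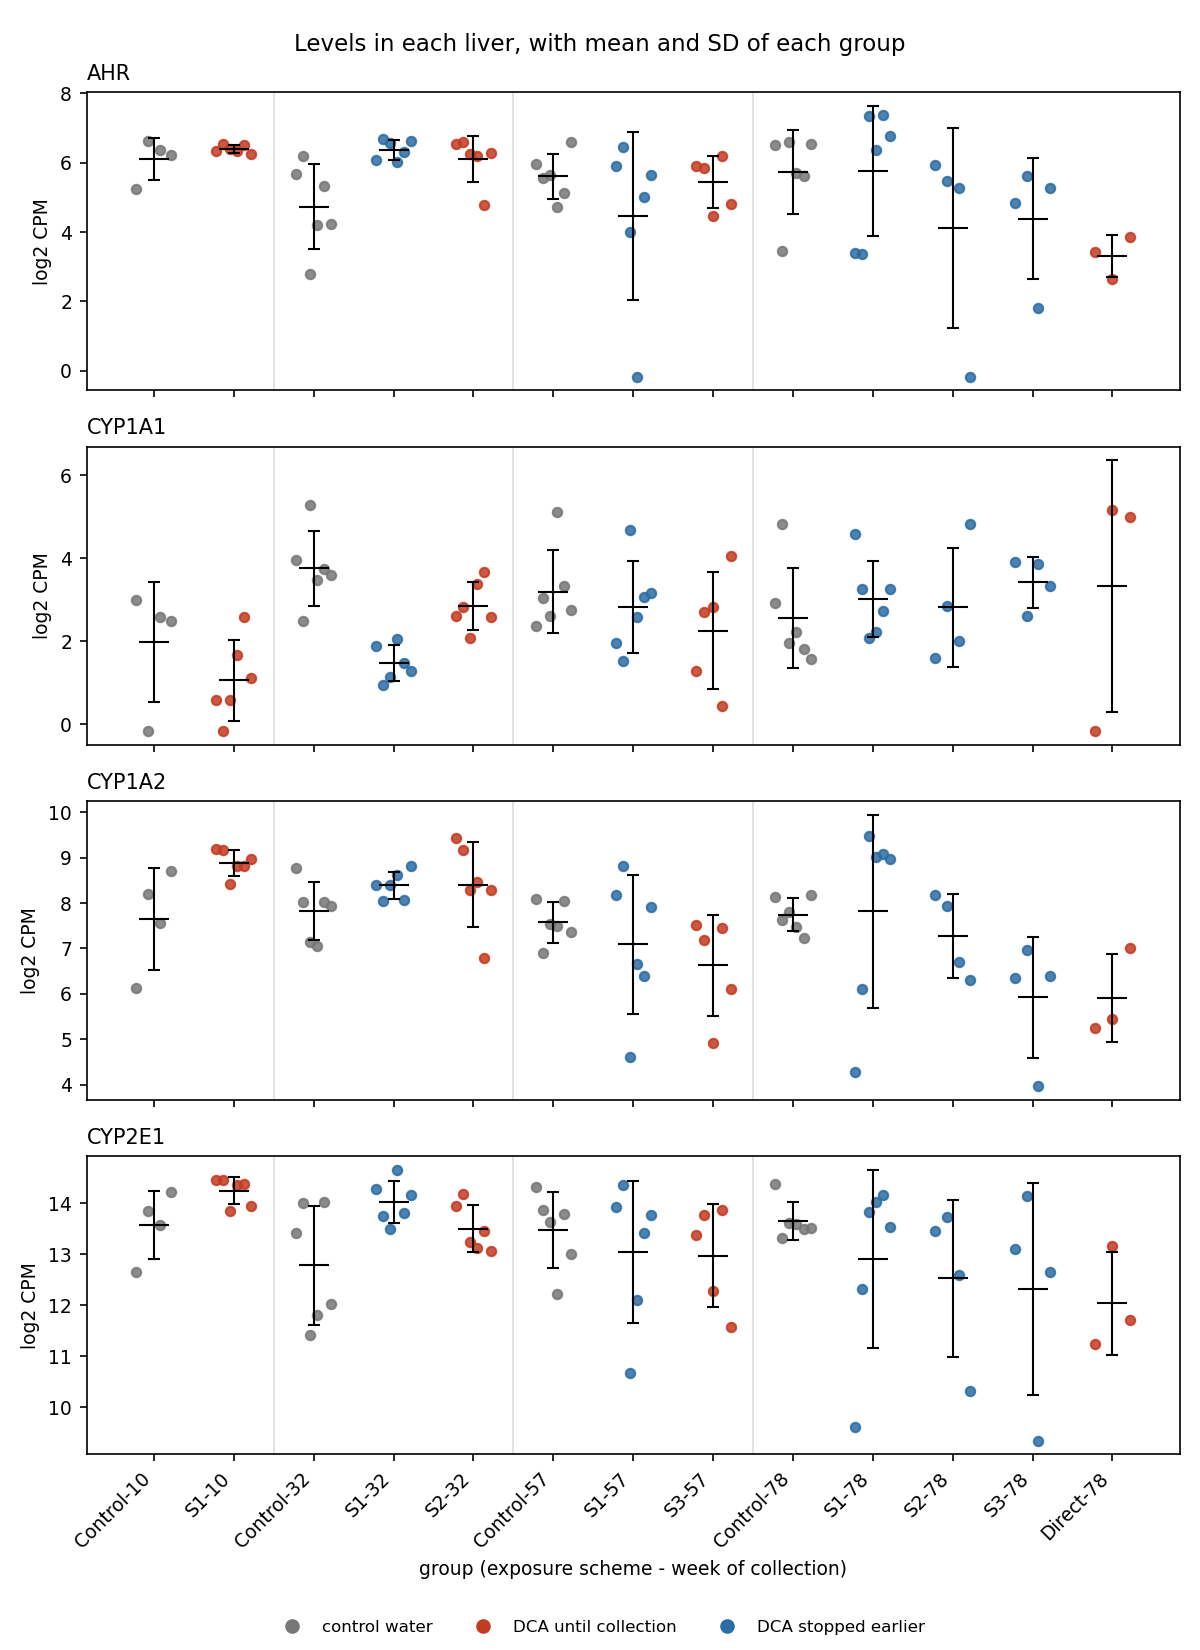
Log2 CPM of AHR, CYP1A1, CYP1A2 and CYP2E1 in each of 68 livers, by group in the order of collection week; each point is 1 mouse, and the black lines give the mean and SD of the group. Within many groups single livers lie far from the others, and in S1-78 AHR ran from 9.39 to 164 CPM.

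In the fit of all 13 groups with edgeR's quasi-likelihood test, a gene was called when its adjusted p was 0.05 or less and its fold change beyond 1.5. Over the 9 comparisons of a treated group with its age-matched control, 2 of 36 member tests were called, and 6 had an unadjusted p under 0.05. CYP1A1 fell in S1-32, where 29.1% of all tested genes were called (11.9% higher and 17.2% lower), and AHR fell in Direct-78, where 24.4% were called (18.7% lower). In each of these groups 1 of 4 members is thus a share near that of all genes. No member was called in S1-10, S2-32, S1-57, S3-57, S1-78, S2-78 and S3-78, where 5.49% (4.40% lower), 10.7%, 1.59%, 6.39%, 1.81%, 1.63% and 13.3% of all genes were. DESeq2 called the same number of members as edgeR in each of the 9 comparisons.

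**Figure D2:**
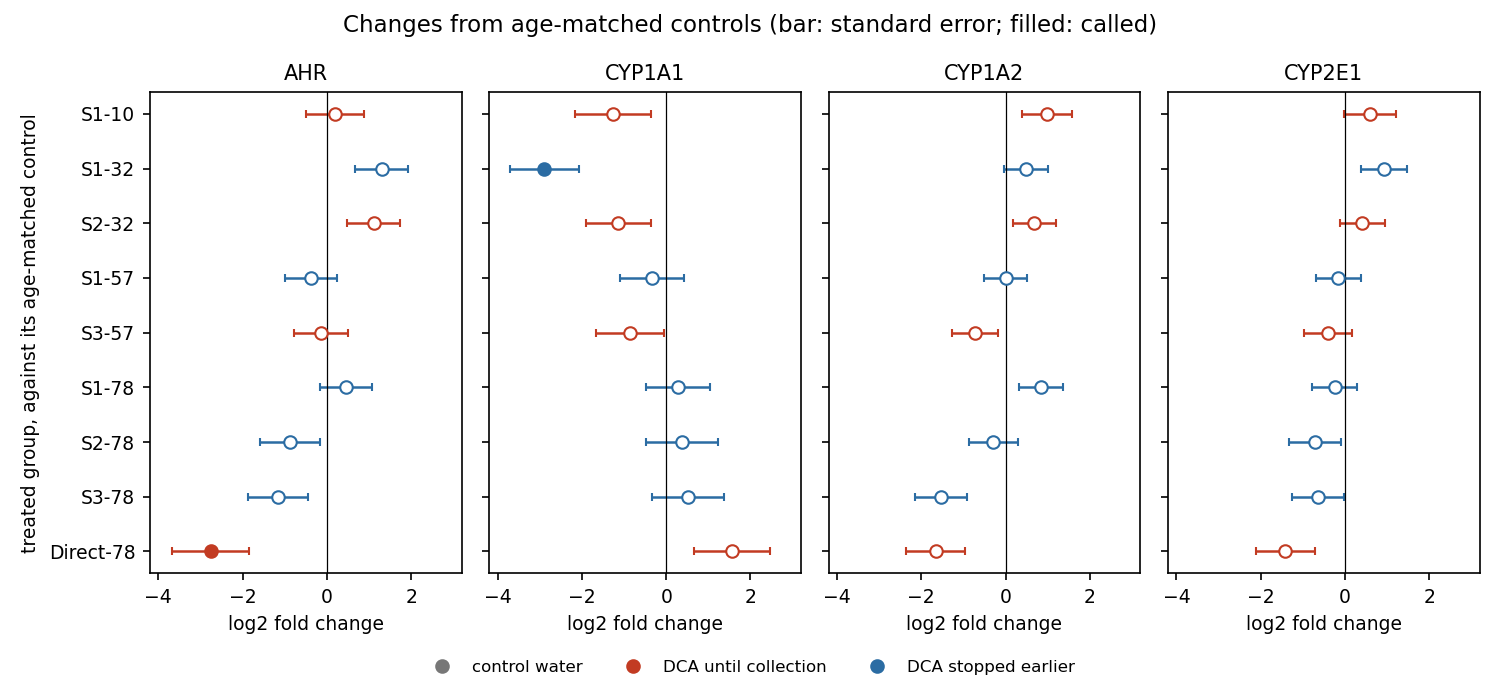
Log2 fold change of each member from the controls of the same week in the 9 treated groups, with the standard error as a bar; filled points were called. CYP1A1 in S1-32 (-2.89) and AHR in Direct-78 (-2.75) are the filled points, and the signs of the remaining folds differ between groups.

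AHR, the receptor itself, was lower after 78 weeks of DCA than in controls of that age. The 3 livers of Direct-78 had 9.87, 5.39 and 13.5 CPM of AHR, from 10, 4 and 10 counts. Control-78 had 9.996 CPM at the lowest, a median of 70.9 and 96.1 at the highest. The groups overlap through mouse 86, the lowest control, and 2 of 3 treated livers lie below it. AHR had a log2 fold change of -2.75 ± 0.91 (SE), a 6.75-fold fall, with an adjusted p of 0.0244 by edgeR's quasi-likelihood test (0.00301 to 0.957 over the alternative settings). The call was lost without any of the 3 treated livers, at adjusted p values of 0.0977, 0.0825 and 0.0598 without mouse 64, 65 and 66. With the squared rank correlation of each library as a covariate the fold was 0.09, and with the log2 total count it was -0.33. The part of these library measures in the fall was not tested. The median of all genes was -0.33 in this comparison under TMM and 0.12 under upper-quartile scaling. The groups collected at 78 weeks share the same controls. Relative to that median AHR stood at -2.42 and -2.33, with the second not called at an adjusted p of 0.0501. In bulk liver, fewer cells that make a transcript and less of it per cell cannot be told apart, here and in the results that follow.

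At 32 weeks AHR stood higher in both treated groups than in the control, without a call. S1-32 had 63.8 CPM at the lowest, a median of 86.4 and 101.5 at the highest, and S2-32 had 26.9, 76.1 and 95.9. Control-32 had 6.08, 28.6 and 72.1. Of the S1-32 livers, 4 of 6 lie above every control. Its log2 fold changes were 1.30 ± 0.63 (adjusted p = 0.103, edgeR) in S1-32 and 1.11 ± 0.62 (adjusted p = 0.219, edgeR) in S2-32. Without mouse 74 of Control-32 the first was called, at 1.69 with an adjusted p of 0.0392. It was also called when only the compared groups were fitted, at 1.28 (adjusted p = 0.0388, edgeR). With the log2 total count as a covariate the 2 folds were 0.23 and 0.59, and with the squared rank correlation 0.35 and 0.28, none called.

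The other groups showed no change of AHR beyond the spread of the livers. At 10 weeks S1-10 had a lowest level of 75.8, a median of 81.5 and a highest of 92.3 CPM, a ratio of highest to lowest of 1.22, the smallest of any group for the receptor. Control-10 had 37.1, 97.7, 81.4 and 74.4 CPM, and the log2 fold change of S1-10 was 0.20 ± 0.69. S1-57 ran from 0 through a median of 40.2 to 86.02 CPM and S1-78 from 9.39 through 94.7 to 164. The zero of S1-57, mouse 28, came from a library of 919268 counts. Scaled by that total without TMM correction, it allows up to 3.26 CPM, the limit of 3 counts that covers counting error only. The libraries of S2-78 held 59.96, 43.3, 37.6 and 0 CPM, where the zero of mouse 47 allows up to 2.53 CPM without TMM correction. S3-57 held 59.1, 57.0, 21.3, 71.8 and 27.2 CPM, and S3-78 held 27.5, 48.2, 2.65 and 38.02. Control-57 had 25.3 at the lowest, a median of 47.98 and 96.2 at the highest. Log2 fold changes of AHR were -0.37 in S1-57, -0.15 in S3-57, 0.45 in S1-78, -0.88 in S2-78 and -1.16 in S3-78, with standard errors of 0.61 to 0.71. In the order of mean log2 CPM the receptor was highest in S1-10 (6.40 ± 0.11, SD, n = 6) and S1-32 (6.38 ± 0.29, n = 6) and lowest in S2-78 (4.12 ± 2.87, n = 4) and Direct-78 (3.31 ± 0.61, n = 3). By mean CPM, S1-78 was highest (88.96) and S3-78 (29.1) lay below S2-78 (35.2), whose log2 mean includes the 0 of mouse 47. Each group in the log2 order overlapped with the next, for AHR as for the other 3 members.

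CYP1A1, the receptor's inducible target, fell in S1-32, 22 weeks after 10 weeks of DCA. The 6 livers of S1-32 had 1.04 CPM at the lowest, a median of 1.74 and 3.29 at the highest, from 3 to 10 counts. Control-32 had 4.75, 11.8 and 37.9 CPM, from 10 to 56 counts. All 6 treated livers lie below all 6 controls. The share of all tested genes whose ranges lie apart was not counted, here and in the results that follow. CYP1A1 had a log2 fold change of -2.89 ± 0.82, a 7.43-fold fall, with an adjusted p of 0.00806 by edgeR's quasi-likelihood test (0.000549 to 0.22 over the alternative settings). It was called without each of the 12 livers in turn, with a largest adjusted p of 0.0411. With the log2 total count as a covariate it was -1.94 and not called (adjusted p = 0.22), and with the squared rank correlation it was -1.80 and not called (adjusted p = 0.116). That correlation was 0.904 to 0.921 in S1-32 and 0.628 to 0.947 in Control-32. Macrophage markers (5 of 9 listed genes are on the panel) summed to 602 to 883 CPM in S1-32 and to 75.9 to 567 in Control-32. The part of these differences in the fall of CYP1A1 was not tested.

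In livers still on DCA at 32 weeks CYP1A1 was nearer to the control. S2-32 had 3.34 CPM at the lowest, a median of 5.74 and 11.8 at the highest, all above the 6 livers of S1-32. The log2 fold change from Control-32 was -1.14 ± 0.77 (adjusted p = 0.31, edgeR). S2-32 was not called against S1-32 (adjusted p = 0.237, edgeR).

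At 10 weeks the transcript was close to the limit of detection. S1-10 had 0, a median of 0.934 and at most 5.14 CPM, from 0 to 11 counts, and Control-10 had 7.07, 0, 5.16 and 4.73 CPM. The log2 fold change was -1.27 ± 0.90, not called. With all 78 libraries it was -3.29 and called (adjusted p = 0.0231, edgeR). That fit added mouse 67 (84.7 CPM, squared rank correlation 0.273) and mouse 70 (0 counts) to Control-10. On its scale, that of all 78 libraries, the kept controls were at 0 to 7.70 CPM. The zeros of mouse 14 (S1-10) and mouse 69 (Control-10) allow up to 2.08 and 1.36 CPM, scaled by their library totals without TMM correction.

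In several groups 1 liver stood far above the others, as mouse 75 did in Control-32. The highest liver had 24.8 CPM in S1-57 (mouse 27, median 6.34), 23.2 in S1-78 (mouse 31, median 7.23), 33.6 in Control-57 (mouse 82, median 6.57) and 27.5 in Control-78 (mouse 86, median 3.40). The 4 livers of S2-78 held 2.14, 6.36, 3.11 and 27.5 CPM, the last in mouse 47. S3-57 held 1.56, 5.60, 6.17, 0.473 and 15.7 CPM, and S3-78 held 14.3, 5.18, 13.8 and 9.13. No fold change from the control was called. They were -0.34 in S1-57, -0.87 in S3-57, 0.28 in S1-78, 0.38 in S2-78 and 0.52 in S3-78, with standard errors of 0.76 to 0.86. In Direct-78 the livers disagreed. Mice 65 and 66 had 35.04 and 31.05 CPM, above every control of that age, from 26 and 23 counts. Mouse 64 had 0 counts, which allows up to 4.29 CPM, scaled by its library total without TMM correction. Direct-78 had a log2 fold change of 1.56 ± 0.91 (adjusted p = 0.195, edgeR). Without mouse 86 of Control-78 it was called, at 2.63 with an adjusted p of 0.0308. With the log2 total count as a covariate it turned to -0.90 (adjusted p = 0.815, edgeR), and with the squared rank correlation it was 0.069.

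CYP1A2, the constitutive CYP1A enzyme of liver, which clears caffeine, was not called in any treated group against its control. Its lowest group means were those of the longest exposures. The livers of Direct-78 had 37.5, 43.1 and 128 CPM, and those of S3-78 had 80.6, 124, 14.8 and 83.7. Control-78 had 150.4 at the lowest, a median of 209.95 and 286 at the highest. Every liver of Direct-78 and of S3-78 lies below every control. Of all genes 24.4% were called in Direct-78 and 13.3% in S3-78, and the share with ranges apart was not counted. The log2 fold change was -1.66 ± 0.70 in Direct-78 (adjusted p = 0.0708, edgeR; 0.00963 to 0.997 over the alternative settings). In S3-78 it was -1.53 ± 0.61 (adjusted p = 0.0863, edgeR; 0.0507 to 0.431). With the squared rank correlation as a covariate the first was 0.0047 and the second -1.16.

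In the treated groups of 10 and 32 weeks, S1-32 being off DCA by then, CYP1A2 stood higher, also without a call. S1-10 had 339 CPM at the lowest, a median of 472 and 585 at the highest, while Control-10 had 68.9, 293, 189 and 416. S2-32 had 109, 333 and 692, S1-32 had 263, 337 and 448, and Control-32 had 131, 249.7 and 433. The log2 fold changes were 0.99 ± 0.60 in S1-10, 0.48 ± 0.52 in S1-32 and 0.69 ± 0.52 in S2-32, with adjusted p values of 0.342, 0.494 and 0.365 by edgeR's test. At 57 weeks S1-57 had 23.5, 171 and 450.2 CPM, S3-57 had 181, 144, 29.5, 173 and 67.6, and Control-57 had 118, 183 and 273. Their log2 fold changes were 0.0034 ± 0.52 and -0.73 ± 0.55. S1-78 was split, with mice 31 and 32 at 18.7 and 67.7 CPM and the other 4 livers between 497 and 706, all 4 above every control of that age. Its log2 fold change was 0.84 ± 0.52 (adjusted p = 0.501, edgeR). S2-78 held 288, 245, 103 and 78.3 CPM, with a log2 fold change of -0.30 ± 0.58.

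CYP2E1, the ethanol-oxidising enzyme, was the member with the most counts, 1.26% of all counts of the 68 libraries, and no treated group was called. Direct-78 had 2404, 9214 and 3351 CPM. Control-78 had 10211 at the lowest, a median of 12015 and 21237 at the highest, so all 3 treated livers lie below all controls. How many of all genes lie apart in this way was not counted. The log2 fold change was -1.41 ± 0.71 (adjusted p = 0.129, edgeR; 0.0288 to 0.9696 over the alternative settings). With the squared rank correlation as a covariate it was 0.57, and with the log2 total count 0.12. S3-78 had 8773, 18204, 647 and 6460 CPM and S2-78 had 11212, 13637, 6211 and 1279, against which the folds from Control-78 were -0.64 ± 0.61 and -0.72 ± 0.61. S1-78 ran from 782 through a median of 13143 to 18355 CPM, with a log2 fold change of -0.24 ± 0.54.

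As with the receptor, the highest means of log2 CPM of CYP2E1 were those of S1-10 and S1-32. S1-10 had 14841 CPM at the lowest, a median of 21180 and 22612 at the highest, and Control-10 had 6433, 14729, 12156 and 19049. S1-32 had 11615, 16306 and 25773, S2-32 had 8565, 10484 and 18643, and Control-32 had 2729, 7576 and 16766. CYP2E1 had log2 fold changes of 0.59 ± 0.61 in S1-10, 0.92 ± 0.54 in S1-32 and 0.42 ± 0.54 in S2-32. At 57 weeks S1-57 ran from 1624 through 12452 to 21031 CPM and Control-57 from 4769 through 13457 to 20459, and S3-57 had 10653, 13958, 4940, 15043 and 3047. Those folds were -0.16 ± 0.54 and -0.40 ± 0.57.

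Age alone was tested in the controls at 32, 57 and 78 weeks against 10 weeks, where 1.59%, 3.45% and 3.95% of all genes were called. Of 12 member tests 0 were called by edgeR and 0 by DESeq2, and 1 had an unadjusted p under 0.05. The means of log2 CPM in Control-10, Control-32, Control-57 and Control-78 were 6.12, 4.74, 5.61 and 5.74 for AHR. For CYP1A1 they were 1.98, 3.76, 3.202 and 2.55, and for CYP1A2 7.65, 7.82, 7.57 and 7.74. CYP2E1 stood at 13.57, 12.78, 13.48 and 13.65. Control-32 thus had the lowest mean of AHR and CYP2E1 and the highest of CYP1A1 among the controls.

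Continued exposure was compared with exposure that had stopped, at the same age. In S2-32 against S1-32, S3-57 against S1-57 and Direct-78 against S3-78, where 3.54%, 0% and 5.03% of genes were called, 0 of 12 member tests were called by edgeR and 0 by DESeq2, and 1 had an unadjusted p under 0.05. In Direct-78 against S1-78, where 24.5% of genes were called (19.1% lower), AHR and CYP1A2 fell, 2 of 4 members. AHR differed by -3.21 ± 0.93 on the log2 scale (adjusted p = 0.0109, edgeR; 0.00197 to 0.72 over the alternative settings), although mice 31 and 32 of S1-78, at 9.73 and 9.39 CPM, lie within the range of Direct-78. CYP1A2 differed by -2.49 ± 0.73 (adjusted p = 0.0115, edgeR; 0.00185 to 0.527), and its groups overlap through the same mice. The differences were -1.19 for AHR and -1.43 for CYP1A2 with the log2 total count as a covariate, and with the squared rank correlation -0.86 and -1.03, none called. Neither was called when only the compared groups were fitted (adjusted p = 0.0851 and 0.142, edgeR), where 45 of 2205 genes were. The differences in that fit were -3.19 for AHR and -2.47 for CYP1A2. Without mouse 64 of Direct-78 neither was called, with adjusted p values of 0.0533 and 0.0856, and without mouse 65 CYP1A2 was not (0.0507). CYP1A1 and CYP2E1 differed by 1.29 ± 0.90 and -1.17 ± 0.70, not called.

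The change at the end of exposure was also compared between exposures, as the difference of 2 changes from age-matched controls. The change in Direct-78 differed from the change in S1-10 for AHR and CYP1A2, 2 of 4 members, in a comparison where 33.8% of all genes were called (20.4% lower). The difference was -2.96 ± 1.12 for AHR (adjusted p = 0.0365, edgeR; 0.00395 to 0.93) and -2.65 ± 0.92 for CYP1A2 (adjusted p = 0.0218, edgeR; 0.00188 to 0.68). For CYP1A1 it was 2.83 ± 1.28 (adjusted p = 0.0776) and for CYP2E1 -2.001 ± 0.93 (adjusted p = 0.0857). Neither AHR nor CYP1A2 was called without mouse 64 (adjusted p = 0.0840 and 0.0865, edgeR), without mouse 65 (0.0965 and 0.0655) or without mouse 68 of Control-10 (0.0946 and 0.0736). The same held with upper-quartile factors (0.0779 and 0.0605) and with either library measure as a covariate. AHR alone was also lost with RLE factors, with limma, and without mouse 66, 85, 87 or 90. DESeq2 called CYP1A1 as well, at 3.33 with an adjusted p of 0.0312, and CYP2E1 was called when only the compared groups were fitted (adjusted p = 0.0134, edgeR). The change at the end of exposure in S2-32 and in S3-57 was compared with that in S1-10 too, with 1.86% and 6.21% of genes called. The change after withdrawal was compared with that at the end of the same exposure for S1-32, S1-57 and S1-78 (0%, 3.67% and 4.22% of genes), S2-78 (0.499%) and S3-78 (0%). In these 7 differences 0 of 28 member tests were called by edgeR and 0 by DESeq2, and 2 had an unadjusted p under 0.05. Differences that use S1-10 share its livers and those of Control-10.

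**Figure D3:**
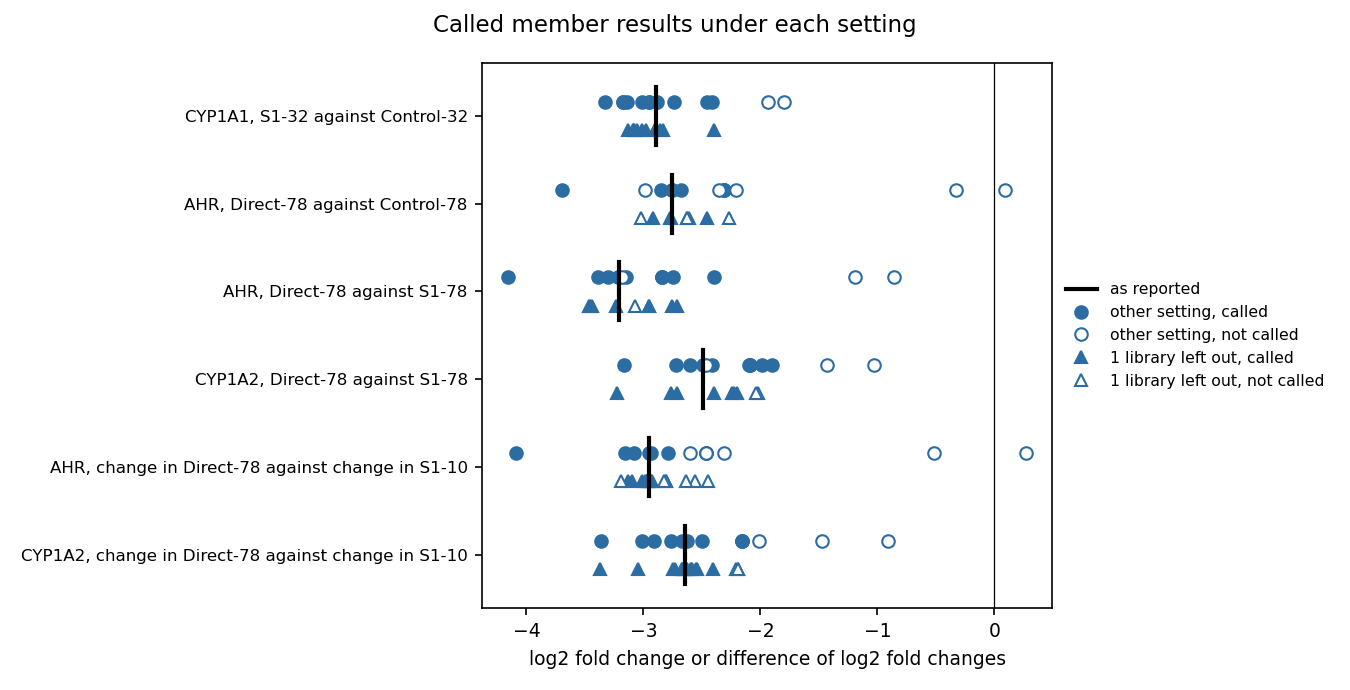
The 6 member results that were called, as log2 fold change or difference of log2 fold changes, under each alternative setting (circles) and without each library in turn (triangles); the black bar is the value as reported and open symbols were not called. CYP1A1 in S1-32 stayed called without any 1 library, and the values nearest 0 in each of the 6 results are those with a library measure as a covariate.

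Across livers AHR, CYP1A2 and CYP2E1 went together and CYP1A1 went the other way. Over 68 libraries Pearson's r of log2 CPM was 0.80 for CYP1A2 with CYP2E1 (Spearman's rho 0.74), 0.77 for AHR with CYP2E1 (0.68) and 0.71 for AHR with CYP1A2 (0.80). For CYP1A1 it was -0.56 with AHR (-0.63), -0.52 with CYP2E1 (-0.54) and -0.44 with CYP1A2 (-0.49). Taken as deviations from the group means, which removes differences between groups, the 6 values were 0.79, 0.72, 0.66, -0.50, -0.41 and -0.39. Without the 2 libraries farthest from the median of the first gene of a pair they lay between 0.72 and 0.80 for the 3 positive pairs and between -0.62 and -0.52 for the pairs with CYP1A1. These are descriptions without a test: each value shares the total and the scaling factor of its library.

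The pattern can be seen in 4 livers chosen after their values were seen, and 1 liver that goes against it. Mouse 27 of S1-57 had 24.8 CPM of CYP1A1, the highest of its group, with 23.5 of CYP1A2 and 1624 of CYP2E1, the lowest of the group. Mouse 31 of S1-78 had 23.2 CPM of CYP1A1 with 18.7 of CYP1A2 and 782 of CYP2E1. Without TMM correction these livers also had the highest summed hepatocyte markers of their groups (74765 and 90544 CPM). The same held for the cholangiocyte markers (395 and 921 CPM). Whether these ranks hold after TMM correction was not tested, nor was the part of the markers in the pattern. In mouse 47 of S2-78, a liver section with pancreatic acinar markers, CYP1A1 was at 27.5 CPM, AHR at 0, CYP1A2 at 78.3 and CYP2E1 at 1279. Mouse 75 of Control-32 had 37.9 CPM of CYP1A1, the highest of all 68 libraries, with 6.08 of AHR and 2729 of CYP2E1, without any DCA. Mouse 64 of Direct-78 went the other way, with 0 counts of CYP1A1 and the lowest CYP1A2 (37.5 CPM) and CYP2E1 (2404 CPM) of its group.

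**Figure D4:**
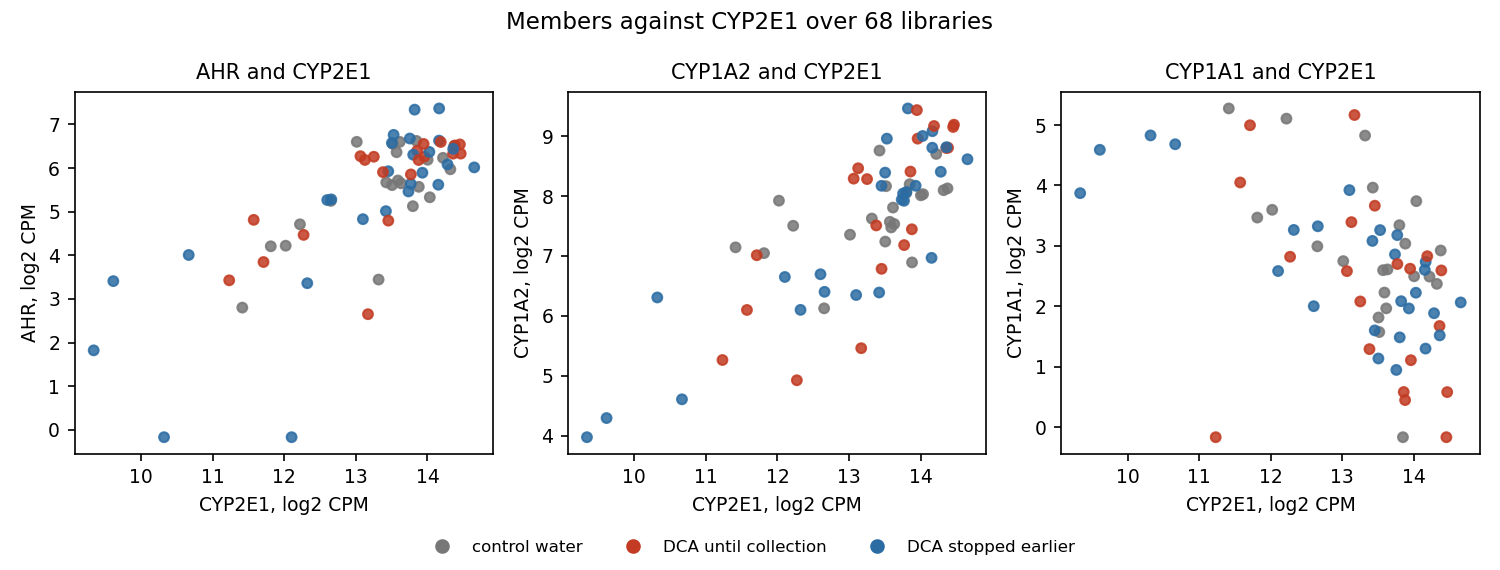
AHR, CYP1A2 and CYP1A1 against CYP2E1, all in log2 CPM, over 68 libraries, coloured by control water, DCA until collection, or DCA stopped earlier. AHR and CYP1A2 rise with CYP2E1 (r of 0.77 and 0.80) and CYP1A1 falls (r of -0.52).

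The members also moved with the measures of the library. Pearson's r with the squared rank correlation to the mean library was 0.70 for AHR, 0.69 for CYP2E1, 0.49 for CYP1A2 and -0.49 for CYP1A1. With the log2 total count it was 0.56, 0.42, 0.44 and -0.26. As deviations from the group means the first 4 values were 0.66, 0.66, 0.45 and -0.47. These are descriptions too, and the part of library quality in the levels was not tested.

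**Figure D5:**
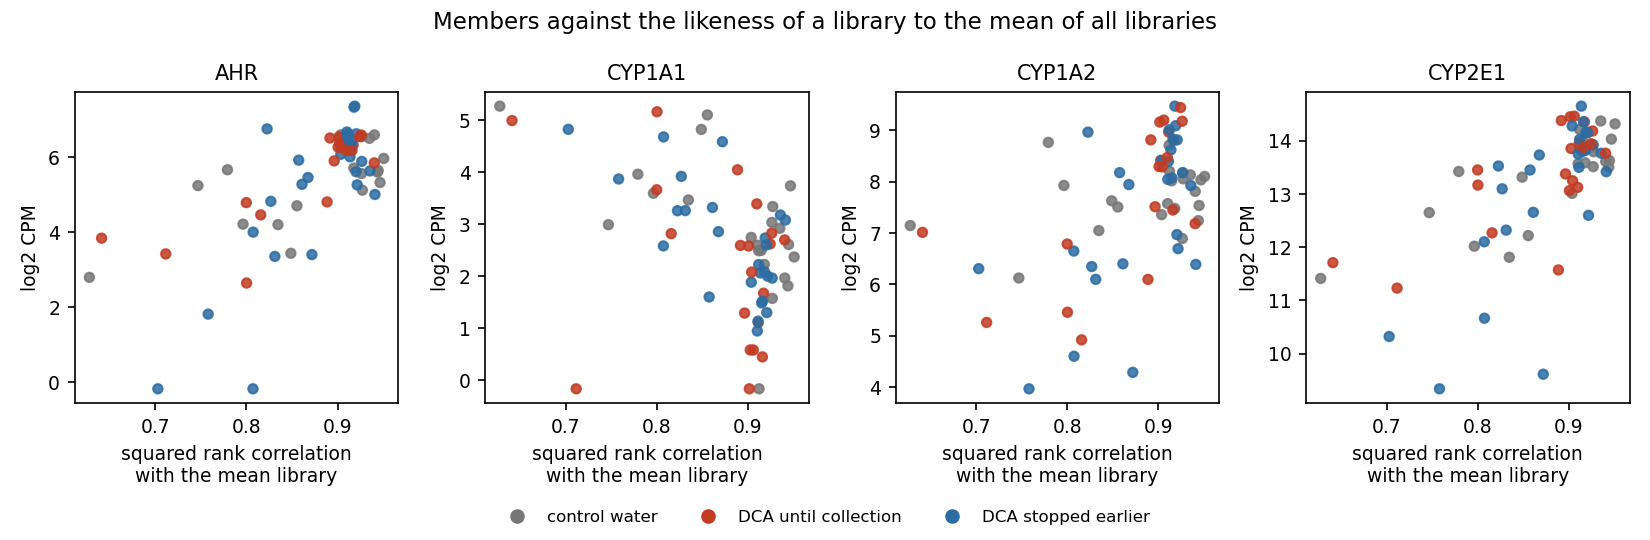
Log2 CPM of each member against the squared Spearman correlation of its library with the mean of all 78 libraries, for the 68 kept libraries. AHR and CYP2E1 are low and CYP1A1 is high in most livers with a low correlation (r of 0.70, 0.69 and -0.49).

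The genes with the pattern most like each member were found among the other 2204 tested genes. For AHR they were SYPL (r = 0.89, rho = 0.76, r = 0.80 without the 2 farthest libraries), CCNC (0.87, 0.79 and 0.80) and LAP3 (0.85, 0.85 and 0.86). CYP2E1 stood 43rd and CYP1A2 130th in that order, and CYP1A1 stood 1990th. For CYP1A2 they were UGT3A2, a glycosyltransferase (r = 0.89, rho = 0.85, 0.86), TM9SF3 (0.86, 0.91 and 0.88) and MUP15, a major urinary protein (0.86, 0.85 and 0.86). CYP2E1 was most like CYP2C54, another P450 (0.91, 0.86 and 0.88), and the hepatocyte uptake carriers SLCO1B2 (0.88, 0.81 and 0.88) and SLC10A1 (0.88, 0.76 and 0.84). CYP1A1 was most like GM13306 (0.69, 0.72 and 0.76), CRKL (0.67, 0.71 and 0.72) and DEPDC1A (0.66, 0.67 and 0.71).

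The partners of the receptor on the panel were ARNT, HSP90AA1, HSP90AB1 and EP300, the tested 4 of 6. HSP90AA1, an inducible HSP90 chaperone, fell in S3-78 (log2 fold change -2.05 ± 0.36) and in Direct-78 (-1.96 ± 0.40). ARNT, the dimer partner, fell in S1-10 (-0.87 ± 0.26) and rose in S3-78 (1.00 ± 0.26), and EP300, a coactivator, was called lower in Direct-78, where all 3 livers had 0 counts and Control-78 had 0 to 79. In Direct-78 2 of 4 partners were called lower (18.7% of all genes), in S1-10 1 of 4 (4.40%), in S3-78 1 of 4 in each direction (13.3% of all genes in either), and none in the other 6 groups.

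Of the other known targets of the receptor 8 of 11 panel genes were tested, several of which also respond to NRF2 and other regulators. No gene of this list was called higher in S1-10, S1-32, S2-32, S1-57, S3-57, S1-78 or S2-78. Of all genes 11.9% were called higher in S1-32. In the others, in that order, 5.49%, 10.7%, 1.59%, 6.39%, 1.81% and 1.63% were called in either direction. With 8 genes the absence of such calls is not read as a result about the list. In S1-10 2 of 8 were called lower, where 4.40% of all genes were called lower, and in S1-32 2 of 8, where 17.2% of all genes were called lower. They include UGDH, which makes UDP-glucuronic acid (-3.35 ± 0.76, -2.88 ± 0.71, and -2.36 ± 0.70 in S2-32), and GSTA2, a glutathione transferase (-2.89 ± 0.81 and -2.15 ± 0.75). In Control-10 the highest counts stood far above the medians, 114973 against 16049 for UGDH and 2880 against 691 for GSTA2. In S1-10 these genes had 2962 to 4866 and 78 to 272 counts. UGT1A6A, a glucuronosyltransferase, fell in S1-57 (-1.10 ± 0.28), S3-57 (-1.05 ± 0.29), S3-78 (-1.23 ± 0.32) and Direct-78 (-0.96 ± 0.35). NQO1, a quinone reductase, rose in S3-78 (2.53 ± 0.73) and Direct-78 (2.28 ± 0.78), where 1 of 3 livers had 0 counts of it. In S2-32, S1-57, S3-57, S3-78 and Direct-78 1 of 8 was called lower. In S3-78 and Direct-78 1 of 8 was called higher. Of all genes 10.7%, 1.59%, 6.39%, 13.3% and 24.4% were called in these 5 groups in either direction. UGT1A6A and GSTA2 have near-identical copies, and whether their probes also count these was not tested. The medians of the list differed in sign between groups: -1.28 in S1-10, -0.47 in S1-32, 0.32 in S2-32, -0.41 in S1-57, -0.10 in S3-57, -0.40 in S1-78, 0.54 in S2-78, -0.25 in S3-78 and 0.16 in Direct-78. The median of all genes lay between -0.03 and 0.07 in the first 8 and was -0.33 in Direct-78.

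The 10 tested genes of pericentral hepatocytes, the zone of CYP1A2 and CYP2E1, had 3 called higher in S1-32, where 11.9% of all genes were called higher, and 2 lower in S1-10 (4.40%). In Direct-78 1 of 10 was called lower, below the 18.7% of all genes. LECT2, a Wnt-driven secreted protein, rose in S1-32 (1.55 ± 0.39) and S2-32 (1.33 ± 0.39). CYP3A11 fell in S1-10 (-1.83 ± 0.49) and rose in S2-78 (1.94 ± 0.49), CYP2A5 fell in S1-10 (-3.45 ± 0.75), and CYP2C29 fell in Direct-78 (-2.03 ± 0.73). Counts of CYP2A5 were 3085 to 38931 in Control-10, with a median of 4656.5, and 509 to 1810 in S1-10. In S1-32 the median was 0.66 over the pericentral list and 0.74 over the 11 periportal genes, of which 1 was called higher and 2 lower. In Direct-78 the median was -0.71 over the pericentral list and -0.53 over the periportal genes, of which 2 were called lower. Those are CYP2F2 (-2.82 ± 0.85), a periportal P450 that also fell in S3-78 (-2.33 ± 0.73), and ASS1 of the urea cycle (-2.66 ± 0.83). ECM1 fell in S1-32 (-1.62 ± 0.39) and S3-78 (-1.62 ± 0.46), and CYP17A1 was called higher in S3-78 (3.38 ± 0.99), with a highest count of 1176 in 1 of 4 livers and a median of 61.5, against 2 to 76 counts in Control-78. Of 6 tested regulators of liver genes 2 were called higher in S1-32 (11.9% of all genes), 2 lower in Direct-78 (18.7%) and none in the other 7 groups. CTNNB1, the Wnt effector, rose in S1-32 (0.76 ± 0.28) and fell in Direct-78 (-1.38 ± 0.36), HNF4A fell in Direct-78 (-2.19 ± 0.66) and CEBPA rose in S1-32 (1.02 ± 0.31).

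Of 29 tested markers of other cells, 4 were called in S1-32 and 5 in Direct-78, below the 29.1% and 24.4% of all genes. In S1-78 and S2-78 6 and 5 were called, where 1.81% and 1.63% of all genes were, and no member was called there. In each of these groups 3 of the called markers were pancreatic acinar genes, and the rest were markers of stellate cells and fibroblasts. The summed acinar markers were 23118 CPM in mouse 36 of S1-78 and 14339 in mouse 47 of S2-78, against group medians of 26.4 and 15.4. In Direct-78, SPP1 (-3.63 ± 1.17) and ALAS2 (-3.38 ± 0.72) fell and KRT19 rose (2.94 ± 1.05). Counts in Direct-78 were 0 to 10 for SPP1 (7 to 1024 in Control-78) and 6 to 234 for KRT19 (10 to 135 in Control-78). CD68 had 0 to 3 counts there and 6 to 50 in Control-78, and CD4 had 0 in all 3 livers and 6 to 26 in the controls; both were called lower. ALAS2 also fell in S3-78 (-3.04 ± 0.62). CD4 was called higher in S1-10, with 2 to 12 counts, where Control-10 had 0. The summed macrophage markers were 122 to 410 CPM in Direct-78 and 184 to 579 in Control-78. CD68 rose in S2-32 (2.06 ± 0.65). In S1-32, CD68 (2.40 ± 0.65), C1QA (1.86 ± 0.69), C1QC (1.45 ± 0.43) and the endothelial KDR (1.73 ± 0.55) rose. COL1A1 of stellate cells fell in S1-10 (-2.05 ± 0.61) and rose in S2-32 (2.72 ± 0.59), S1-78 (3.83 ± 0.62) and S2-78 (3.50 ± 0.64). COL1A2 rose in S1-78 (2.98 ± 0.63) and S2-78 (2.45 ± 0.66), and COL3A1 in S2-32 (1.95 ± 0.57) and S1-78 (2.71 ± 0.58). VIM fell in S3-57 (-1.41 ± 0.40). The acinar genes CELA3B and CTRB1 were called higher in S1-78 and S2-78, with medians of 3.5 and 39.5 counts in S1-78 and highest values of 4767 and 12013. Neither of the 2 tested hepatocyte markers, of 8 listed, was called in any treated group. The part of these cells in the members' levels was not tested.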

How the data were processed

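TempO-Seq probe counts of the Mouse S1500+ panel were analysed from FFPE liver sections, 1 library per mouse. The deposited count table holds raw counts per gene, which the authors obtained by assigning reads to probes; Bowtie, mm10 and Partek 10.0.22.0524 are named in the submitters' processing notes. The deposited normalized and filtered tables hold a signal: the count plus 1, divided by 1 factor per library (largest relative spread 6.38e-05). They hold 68 of 78 libraries, and 2205 genes remain in the filtered one. Groups came from the labels.

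Raw counts were fitted in R 4.3.3 with edgeR 4.0.16 (TMM, 1 quasi-likelihood model of 13 groups, 24 contrasts, Benjamini-Hochberg adjustment within a contrast). A call needed an adjusted p of 0.05 or less and, outside the differences of changes, a fold beyond 1.5. DESeq2 1.42.0 and limma 3.58.1 served as alternatives. Alternatives were RLE or upper-quartile factors, other gene filters, all 78 libraries, a covariate, the compared groups alone, and each library left out. Added after seeing the data were the squared rank correlation as a covariate and leaving out 2 libraries under 0.7 or 4 with pancreas markers. In simulated data a fold of 2 on the log2 scale was found for 60 of 100 genes in S1-32 and 43 of 100 in Direct-78, a fold of 1 for 24 and 13, with 1 false call each.

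Members and lists were chosen with earlier results of these data known. The text names all members; from each list, up to 4 genes called in the most treated groups; and the 3 genes most like each member. The result of 1 gene list is not reported here. Nothing in the labels says whether mice shared a cage or day, so p-values measure the spread between these livers. The standard errors of fold changes come from the fit and include the spread between livers. The limits of 3 counts cover counting error only, and the counts lack molecular identifiers.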

Additional observations from a re-analysis of the deposited data

Results flagged for a closer look

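Among 48 groups of 4 to 10 livers of a member, 8 had a liver whose gap to the rest was large for the group's range. The usual chance rate of about 1 in 20 was not measured on these skewed CPM values, so 8 of 48 is not read as an excess. For CYP1A1 it was the highest liver in 6 groups: 24.8 CPM in S1-57 (mouse 27; the others 1.97 to 8.16), 23.2 in S1-78 (mouse 31; 3.35 to 8.72), 27.5 in S2-78 (mouse 47; 2.14 to 6.36), 37.9 in Control-32 (mouse 75; 4.75 to 14.7), 33.6 in Control-57 (mouse 82; 4.28 to 9.25) and 27.5 in Control-78 (mouse 86; 2.08 to 6.70). AHR was low in 1 liver of S2-32, at 26.9 CPM (mouse 41; 71.9 to 95.9), and CYP2E1 high in 1 of Control-78, at 21237 CPM (mouse 85; 10211 to 12530).

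The change in Direct-78 differed from that in S1-10 by -2.96 for AHR and -2.65 for CYP1A2 on the log2 scale, by edgeR's test of the difference. Some libraries of 78 weeks that the authors left out and that the comparisons do not use held more CYP1A1 than any kept control of 78 weeks (2.12 to 28.7 CPM on the scale of all 78 libraries): 59.7 CPM in mouse 57 and 51.3 in mouse 58 of S3-78, and 82.3 in mouse 61 and 91.2 in mouse 62 of Direct-78. The squared rank correlations of these 4 libraries were 0.127 to 0.433. A left-out library without DCA, mouse 67 of Control-10, had 84.7 CPM at a squared rank correlation of 0.273, and the third left-out library of Direct-78, mouse 63, had 12.8 CPM. The left-out libraries of S2-78, mice 46 and 48, had 0 counts.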

How the results depend on the processing

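No paired analysis was possible because every library has a mouse number of its own. Counts of members called moved as follows. With all 78 libraries they were 1 in S1-10 (CYP1A1; 240 of 2205 genes called), 4 in Direct-78 against Control-78 (751 genes) and 4 for the change in Direct-78 against that in S1-10 (969). With the log2 total count or the squared rank correlation as a covariate they were 0 in S1-32, 0 in Direct-78 against Control-78, 0 against S1-78 and 0 for that difference, where all genes gave 36, 11, 9 and 11 calls with the first covariate and 164, 103, 142 and 162 with the second. Fitting the compared groups alone gave 2 in S1-32 (659 genes), 2 in Direct-78 (310), 1 in S2-32 against S1-32 (446) and 0 in Direct-78 against S1-78 (45). Direct-78 against Control-78 had 0 with upper-quartile factors (469 genes), with limma (553) and without the libraries under 0.7 (255), and the difference had 1 with RLE factors (CYP1A2; 747 genes), upper-quartile factors (CYP1A1, with AHR and CYP1A2 both lost; 732) and limma (CYP1A2; 690). Without 1 library the counts ran from 1 to 2 in S1-32 (2 without mouse 74), from 0 to 2 in Direct-78 against Control-78 (0 without mouse 64, 65 or 66, 2 without mouse 86), from 0 to 2 against S1-78 and from 0 to 3 for the difference (0 without mouse 68; 1 without mouse 64, which is CYP1A1, without mouse 65, which is CYP2E1, and without mouse 66, 85, 87 or 90, which is CYP1A2).

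Of 44 member folds under 13 other settings each, 505 of 572 values kept their direction and side of the threshold and 35 turned. With the log2 total count, AHR reached 0.75 in S3-57, 0.27 in S2-78 and 0.084 in S3-78; CYP1A1 became -0.77 (S2-78), -0.59 (S3-78), -0.90 (Direct-78) and -0.98 (Direct-78 against S1-78); CYP1A2 was -0.12 in S1-32 and 0.30 in S2-78; and CYP2E1 was 0.11 in S3-57, 0.012 in S3-78, 0.12 in Direct-78 and 0.15 against S1-78. With the squared rank correlation, AHR was -0.18 in S1-10, 0.085 in S3-57, 0.092 in Direct-78 and 0.27 for the difference; CYP1A1 was -0.66 in S2-78, -0.066 in S3-78 and -0.016 in Direct-78 against S1-78; CYP1A2 moved to -0.28 (S1-32), -0.047 (S2-32), 0.22 (S2-78) and 0.0047 (Direct-78); and CYP2E1 came to -0.18 in S2-32, 0.0081 in S1-57, 0.098 in S1-78, 0.57 in Direct-78, 0.47 against S1-78 and 0.28 for the difference. CYP1A2 in S1-57 was -0.50 with limma, -0.030 in the compared groups alone and -0.032 without the libraries under 0.7. CYP1A1 in S2-78 was -0.087 with all libraries and -0.93 without those with pancreas markers. Without 1 library, ranges that cross 0 belong to AHR in S1-10 (-0.010 to 0.38) and S3-57 (-0.37 to 0.088), CYP1A1 in S1-57 (-1.06 to 0.45), S1-78 (-0.30 to 1.30) and S2-78 (-0.95 to 1.45), CYP1A2 in S1-57 (-0.42 to 0.25), and CYP2E1 in S1-57 (-0.43 to 0.075) and S1-78 (-0.45 to 0.0069). The cause was not tested. Direct-78 rests on 3 livers of at most 699825 counts, and CYP1A1 on under 20 counts in 50 of 68 libraries.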
